A study of Mus musculus with 15 samples.

Results

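The RNA levels of 8 genes that serve xenobiotic sensing in the liver were compared between control mice, mice given methotrexate (MTX) and mice given MTX with dietary nitrate. They were chosen by gene name and comprise the nuclear receptors Nr1i2 (PXR) and Nr1i3 (CAR), the aryl hydrocarbon receptor Ahr, the dimerization partners Rxra and Arnt, the hepatocyte factor Hnf4a and the microsomal electron donors Por and Cyb5a. They are 8 of the 54532 genes in the count table, and all 8 were among the 14219 genes that passed the filter on low counts. The 15 libraries were made from whole livers of wild-type (WT) mice, with 5 libraries for each of 3 treatments. Control animals are labelled as such, and whether they received a vehicle is not given. The MTX animals received methotrexate, an antifolate drug with known liver toxicity, in 1 injection of 20 mg/kg into the peritoneum, and tissue was collected after 24 h. The MTX+nitrate animals drank water with 2 mM nitrate for 5 days and received the same dose of MTX on day 5, and no group had nitrate without MTX. Strain, sex and age are not given in the labels, nor is it stated that each library is a mouse of its own, so the p-values below measure the spread between these libraries.

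PXR and CAR are nuclear receptors that bind drugs and endogenous steroids and bile acids, pair with RXRA on DNA and raise transcription of cytochrome P450 genes of the Cyp3a, Cyp2b and Cyp2c families. AHR is held in the cytosol by chaperones, moves to the nucleus when it binds planar aromatic ligands, and pairs there with ARNT to raise Cyp1a genes. HNF4A binds DNA as a homodimer and maintains hepatocyte identity, including transcription of the receptors themselves. Microsomal P450 enzymes need electrons from NADPH, which POR passes to them. CYB5A, cytochrome b5, can supply the second electron of the P450 cycle and also serves fatty acid desaturases. CAR and AHR are largely controlled by where the protein is in the cell, and the RNA levels reported here do not measure that.

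Library totals ranged from 16663967 to 19274497 counts, and the 8 genes were counted between 268 and 13374 times per library. At the lowest of these counts the counting error is 6.11%, while the biological coefficient of variation that edgeR fitted over all genes was 0.223. The summed level of 8 hepatocyte marker genes was 92276 to 126836 CPM (counts scaled to library size, with the TMM factors of edgeR) in control, 122551 to 133929 in MTX and 89199 to 138449 in MTX+nitrate. Markers of T, NK and B cells summed to between 3.18 and 6.28 CPM in every library. In bulk tissue, fewer cells of a type and less RNA per cell cannot be told apart.

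Coordinates are those of the GRCm38 build. Nr1i2 is at chr16:38248323-38294824 on the minus strand, Nr1i3 at chr1:171213970-171220701 on the plus strand and Ahr at chr12:35497974-35535038 on the minus strand. Rxra is at chr2:27676440-27762957, Hnf4a at chr2:163506808-163572910, Arnt at chr3:95434388-95497240 and Por at chr5:135670033-135735326, all on the plus strand. The exons of Nr1i3 overlap those of Tomm40l, a mitochondrial import gene on the opposite strand, at 3304 of 4414 bases (74.9%). The strand setting of the counting is not given in the sources used here, so reads of Nr1i3 and Tomm40l cannot be told apart. Ahr overlaps a noncoding gene at 2.06% of its exon bases, and the other 6 genes overlapped no other gene's exons in the annotation.

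Promoter windows from RefSeq (GRCm38.p6), 250 bases before to 50 after a gene's start, were matched for 6 of the 8 genes and gave 8 windows. The 3 windows shown are those of the pair of genes whose MTX libraries did not overlap the control libraries. The first is the upstream start of Hnf4a at chr2:163506607-163506906, the next its downstream start at chr2:163546905-163547204, which is the one used in adult liver, and the last is the start of Nr1i2 at chr16:38294775-38295074 on the minus strand. Capitals mark matches on either strand to an HNF1 half-site (GTTAAT), a nuclear receptor half-site (AGGTCA), an HNF4 half-site (AGTCCA) or the core bound by AHR with ARNT (GCGTG).
Hnf4a upstream start: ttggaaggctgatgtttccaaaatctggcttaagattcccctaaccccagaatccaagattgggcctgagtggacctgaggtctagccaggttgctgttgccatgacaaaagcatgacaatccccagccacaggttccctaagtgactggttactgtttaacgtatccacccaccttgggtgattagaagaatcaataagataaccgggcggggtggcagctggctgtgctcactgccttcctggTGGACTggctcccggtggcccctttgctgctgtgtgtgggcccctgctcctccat
Hnf4a downstream start: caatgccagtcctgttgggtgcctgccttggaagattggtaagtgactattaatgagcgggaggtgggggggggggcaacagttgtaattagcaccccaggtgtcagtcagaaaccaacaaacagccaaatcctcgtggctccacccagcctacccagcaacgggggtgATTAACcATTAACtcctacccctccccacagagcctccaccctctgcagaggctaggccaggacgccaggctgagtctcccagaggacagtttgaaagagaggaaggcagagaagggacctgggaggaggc
Nr1i2 start: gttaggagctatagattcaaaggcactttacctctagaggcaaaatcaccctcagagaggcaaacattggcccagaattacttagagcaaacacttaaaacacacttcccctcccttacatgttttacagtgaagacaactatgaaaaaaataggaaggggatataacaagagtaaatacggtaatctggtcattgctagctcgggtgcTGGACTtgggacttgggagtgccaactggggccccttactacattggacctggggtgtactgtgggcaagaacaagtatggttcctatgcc
The upstream Hnf4a window and the Nr1i2 window each held 1 HNF4 half-site, and the downstream Hnf4a window held 2 HNF1 half-sites side by side. Among 32851 promoter windows of the same length, 14.1% held the HNF4 half-site and 7.1% the HNF1 half-site. The windows of Por and Arnt held 3 and 1 AHR-ARNT cores, which 32.4% of all windows hold, and the downstream window of Rxra held 2 nuclear receptor half-sites, found in 16.3%. The Nr1i3 window held none of these letters. The gene counts do not separate the starts of Hnf4a, and a match of letters is a description of the sequence.

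In control liver the electron donor Cyb5a was the most abundant of the 8 transcripts and the receptors Ahr and Nr1i3 were the least abundant. Per kilobase of the longest annotated transcript, the control level of Cyb5a was 400.1 ± 36.6 CPM (SD, n = 5 throughout), that of Rxra 128.5 ± 14.4 and that of Hnf4a 122.7 ± 14.3. The ranges of Rxra and Hnf4a overlapped, so their order is not distinguished. Por followed at 59.3 ± 15.3, Nr1i2 at 21.3 ± 3.4 and Arnt at 13.4 ± 1.01 CPM per kilobase. Nr1i3, at 7.44 ± 1.44, and Ahr, at 5.37 ± 1.08, overlapped each other. How reads in the exon bases that Nr1i3 shares with Tomm40l were counted is not given. They may have been added or dropped, so the level and rank of Nr1i3 are uncertain. In MTX liver, Hnf4a stood above Rxra, at 165.5 ± 17.3 against 126.0 ± 14.0 CPM per kilobase with no overlap of the libraries. In MTX+nitrate liver, the level of Ahr, 10.0 ± 3.0, was listed above that of Nr1i3, 9.11 ± 0.746, with overlapping libraries. Dividing by the union of all exons instead left the control order as it was but lowered the level of Cyb5a to 152.4, of Por to 38.9, of Arnt to 7.26 and of Nr1i3 to 5.02 CPM per kilobase. For Cyb5a this union, 3104 bases in GENCODE M21, differs from the deposited gene length of 2143, so its value depends on the gene model.

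**Figure D1:**
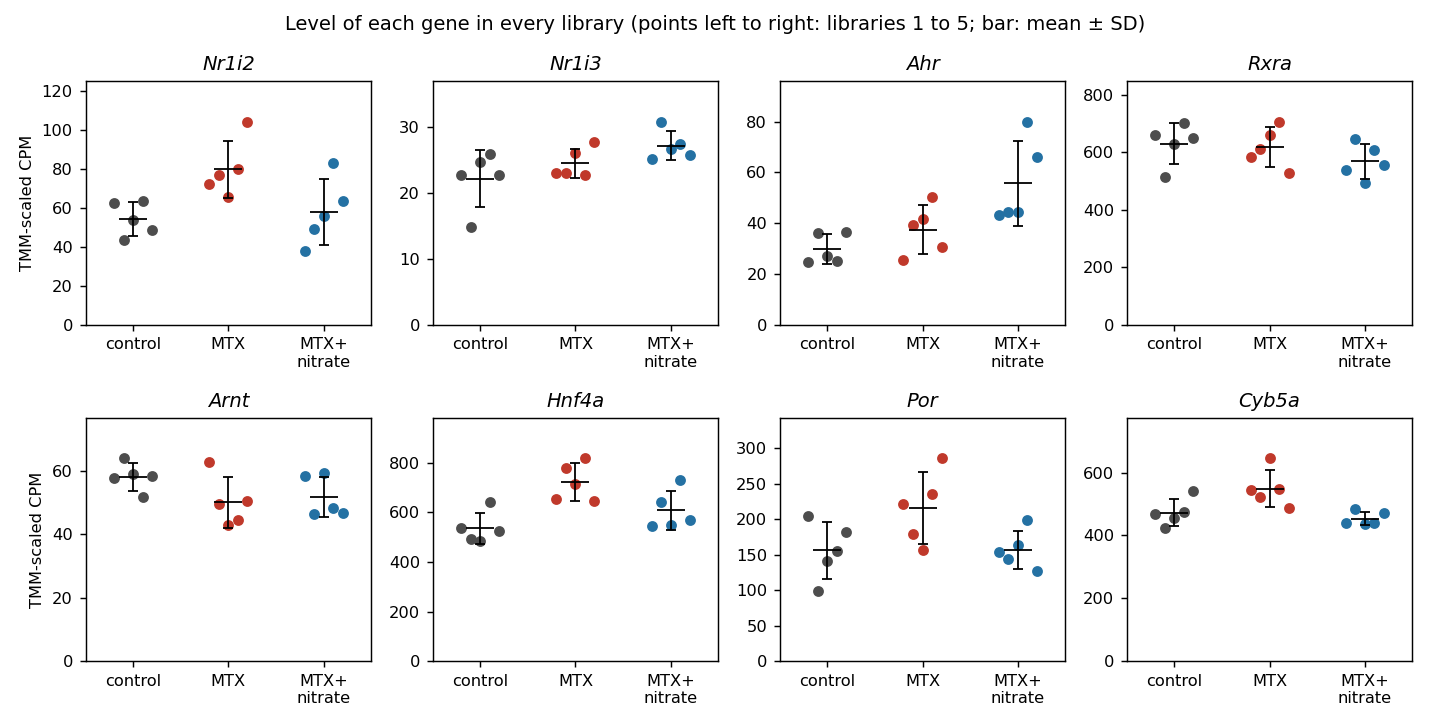
TMM-scaled CPM (y axes, from 0) of each gene in control, MTX and MTX+nitrate livers, 1 panel per gene and 1 point per library, with mean ± SD. The MTX libraries of Nr1i2 and Hnf4a lie above every control library, the MTX+nitrate libraries of Cyb5a lie below every MTX library, and the MTX+nitrate libraries of Ahr lie above every control library.

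Of the 8 genes in the plot of levels by library, Hnf4a was called higher after MTX, Ahr was called higher in MTX+nitrate liver than in control, and none was called between MTX+nitrate and MTX. Genes were called at an adjusted p under 0.05 in edgeR's quasi-likelihood test with Benjamini-Hochberg adjustment over all 14219 genes. In MTX against control, 3.66% of all genes tested were called, and Hnf4a was the 1 of 8 called here; DESeq2 called 7.92% of all genes and 2 of the 8 (Hnf4a and Nr1i2), and limma-voom 2.82% and Hnf4a. In MTX+nitrate against MTX, 4.31% of all genes were called and none of the 8, though 5 had an unadjusted p under 0.05 (22.4% of all genes did). DESeq2 called 8.5% of all genes there and 1 of the 8, Cyb5a, and limma-voom 4.09% and 0. In MTX+nitrate against control, 2.41% of all genes were called and Ahr was the 1 of 8. It was also the 1 called by DESeq2 (5.28% of all genes) and by limma-voom (2.41%). The counts of 0 or 1 among 8 genes say little against these shares, and the values of each gene follow.

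PXR, encoded by Nr1i2, senses drugs, steroids and bile acids. Its control libraries, 1 to 5, stood at 62.3, 43.5, 53.7, 63.6 and 48.5 CPM, its MTX libraries at 72.3, 77.0, 65.6, 79.6 and 104.1, and its MTX+nitrate libraries at 38.0, 49.3, 55.5, 83.1 and 63.3. Every MTX library was above every control library, while the MTX+nitrate libraries spread across both groups. The MTX against control difference was a log2 fold change of 0.55 ± 0.18 (SE; 1.47-fold) with an adjusted p of 0.0834 in edgeR, so it was not called. Between MTX+nitrate and MTX the log2 fold change was -0.46 ± 0.18 (adjusted p = 0.135 in edgeR), and between MTX+nitrate and control it was 0.09 ± 0.18 (adjusted p = 0.843). Groups without overlap in the higher direction were found for 3.15% of all genes in MTX against control. DESeq2 gave the MTX difference an adjusted p of 0.0353, past the threshold. The highest value, in MTX library 5, carried part of the size: without that library the log2 fold change was 0.44 and the adjusted p 0.130 in edgeR.

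CAR, encoded by Nr1i3, is the receptor through which phenobarbital raises Cyp2b genes. Its counts ran at 22.7, 14.9, 24.7, 25.9 and 22.7 CPM in control, 23.0, 23.0, 26.1, 22.8 and 27.7 in MTX and 25.1, 30.8, 26.7, 27.4 and 25.8 in MTX+nitrate. The 3 groups overlapped, and control library 2 was the lowest of all 15. The log2 fold change was 0.14 ± 0.12 between MTX and control, 0.15 ± 0.12 between MTX+nitrate and MTX and 0.29 ± 0.12 between MTX+nitrate and control, with edgeR adjusted p-values of 0.528, 0.512 and 0.225. Without control library 2 they were 0.03, 0.15 and 0.18. The overlapping Tomm40l was counted at 7.05 ± 1.29 CPM in control, 5.24 ± 1.14 in MTX and 7.13 ± 1.79 in MTX+nitrate, and it too was not called in any of the 3 comparisons.

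AHR, the sensor of dioxins and of tryptophan-derived ligands, showed its highest levels in the nitrate group. Ahr stood at 24.6, 36.1, 26.9, 25.0 and 36.5 CPM in control libraries 1 to 5, at 25.6, 39.3, 41.7, 50.4 and 30.5 in MTX and at 43.4, 44.3, 44.3, 80.0 and 66.2 in MTX+nitrate. All MTX+nitrate libraries were above all control libraries, the MTX libraries lay between and overlapped both groups, and MTX+nitrate libraries 4 and 5 stood well above the other 3. Ahr rose 1.87-fold in MTX+nitrate over control, a log2 fold change of 0.90 ± 0.20 with an adjusted p of 0.0327 in edgeR, 0.00143 in DESeq2 and 0.0333 in limma-voom. Groups that did not overlap in this direction were found for 2.64% of all genes. The steps between were 0.33 ± 0.20 from control to MTX (adjusted p = 0.360 in edgeR) and 0.57 ± 0.20 from MTX to MTX+nitrate (adjusted p = 0.114), so neither step alone was called. The call was lost when control library 1, 3 or 4 or MTX+nitrate library 4 or 5 was left out, with adjusted p-values of 0.0935, 0.0706, 0.0676, 0.0793 and 0.0706, and the log2 fold change was 0.73 without MTX+nitrate library 4. AHR is also expressed outside hepatocytes. The summed level of 10 sinusoidal endothelial markers was 340.3 to 511.0 CPM in control, 255.1 to 378.6 in MTX and 382.4 to 552.0 in MTX+nitrate. Of these 10 markers, 0 were called in MTX+nitrate against control in edgeR (1 at an unadjusted p under 0.05; 0 in DESeq2), although the log2 fold changes of all 10 were above 0, with a median of 0.14. In MTX against control edgeR called 0, with 5 at an unadjusted p under 0.05 (21.9% of all genes), and DESeq2 called 4 (7.92%). The log2 fold changes of 0 of the 10 were above 0 in that comparison, with a median of -0.39. In MTX+nitrate against MTX 4 were called higher (Flt4, Oit3, Kdr and Stab1), beside 2.37% of all genes. All 10 were above 0 there, with a median of 0.48, and 8 had an unadjusted p under 0.05 (22.4% of all genes). DESeq2 called 6 of the 10 there, beside 8.5% of all genes in either direction. When trends on transcript length and GC content were corrected for (the length and GC correction), edgeR called 1 of them. The part of these cells in the Ahr level was not tested.

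Neither dimerization partner was called in any comparison in edgeR. RXRA, the obligate partner of PXR, CAR and many metabolic receptors, stood at 658.9, 513.5, 628.0, 702.4 and 649.4 CPM in control, 583.9, 611.6, 660.2, 706.5 and 528.1 in MTX and 538.0, 644.5, 493.8, 608.7 and 554.4 in MTX+nitrate. All 3 groups overlapped. Its log2 fold changes were -0.03 ± 0.10 for MTX against control, -0.12 ± 0.10 for MTX+nitrate against MTX and -0.15 ± 0.10 for MTX+nitrate against control, with edgeR adjusted p-values of 0.899, 0.521 and 0.484. With the length and GC correction, the difference between MTX+nitrate and MTX was -0.34 (adjusted p = 0.0947 in edgeR) and that between MTX+nitrate and control was -0.34 (adjusted p = 0.124), still not called. ARNT, the partner of AHR and of the hypoxia factors, stood at 57.8, 64.0, 58.9, 51.7 and 58.3 CPM in control, 63.0, 49.6, 42.9, 44.4 and 50.7 in MTX and 58.3, 46.5, 59.2, 48.3 and 46.8 in MTX+nitrate. The groups of Arnt overlapped as well, with 4 of 5 MTX libraries below the lowest control library. Its log2 fold changes were -0.22 ± 0.11, 0.05 ± 0.11 and -0.17 ± 0.11 in the same order, with edgeR adjusted p-values of 0.255, 0.832 and 0.456.

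HNF4A maintains the hepatocyte program and is known to act on Nr1i2 and Nr1i3. Hnf4a stood at 535.7, 491.4, 483.6, 639.5 and 526.6 CPM in control libraries 1 to 5, at 652.7, 778.0, 715.3, 817.1 and 645.6 in MTX and at 544.3, 643.2, 548.7, 731.6 and 569.0 in MTX+nitrate. The lowest MTX library stood just above the highest control library, and the MTX+nitrate libraries overlapped both groups. Hnf4a rose 1.35-fold with MTX, a log2 fold change of 0.43 ± 0.11 with an adjusted p of 0.0345 in edgeR, 0.00452 in DESeq2 and 0.0354 in limma-voom. MTX+nitrate against MTX gave -0.25 ± 0.11 (adjusted p = 0.178 in edgeR) and MTX+nitrate against control 0.18 ± 0.11 (adjusted p = 0.397). With the length and GC correction these were -0.40 (adjusted p = 0.0552 in edgeR) and 0.05 (adjusted p = 0.873), still not called. The call of the MTX difference was near the threshold: it was kept in 2 of the 10 fits that leave out a control or MTX library, those without control library 4 (adjusted p = 0.0324) or MTX library 5 (adjusted p = 0.0231), and it was lost when control library 1, 2, 3 or 5, or MTX library 1, 2, 3 or 4, was left out, with adjusted p-values of 0.0566 to 0.0895. Its log2 fold change in those 10 fits stayed between 0.38 and 0.50. Of 8 hepatocyte markers 2, Fgb and Tat, were also called higher with MTX, beside 2.06% of all genes, and their part in the Hnf4a value was not tested.

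**Figure D2:**
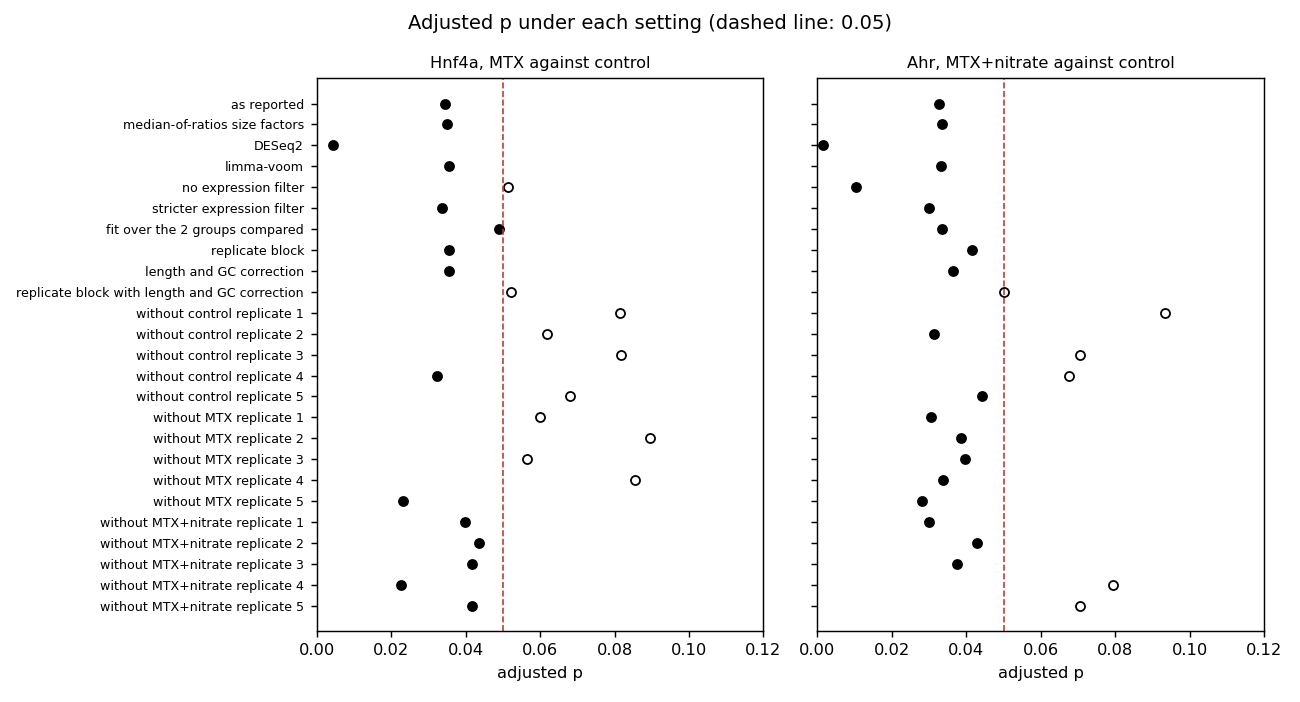
Adjusted p (x axis, linear) of Hnf4a in MTX against control and of Ahr in MTX+nitrate against control, as reported and under 24 other settings (y axis), filled where it is under 0.05 (dashed line). Most of the values above the line come from leaving out 1 library of the groups compared.

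The plot of adjusted p by setting shows how near both calls lie to the threshold. Other tools and scalings kept them, and in the settings beside leaving out a library the exceptions for Hnf4a were no expression filter (adjusted p = 0.0515) and the replicate block with the length and GC correction (adjusted p = 0.0521). For Ahr the exception was that block with the correction, at an adjusted p of 0.0501.

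Both electron donors had their highest group mean after MTX. POR is the NADPH reductase that every microsomal P450 depends on. Por stood at 204.0, 98.3, 141.5, 155.7 and 181.8 CPM in control, 221.4, 179.6, 156.0, 235.8 and 285.4 in MTX and 153.7, 143.7, 163.1, 198.2 and 126.7 in MTX+nitrate. The groups overlapped and the spread within them was wide, with the lowest library in control and the highest in MTX. The log2 fold change of Por was 0.46 ± 0.19 from control to MTX and -0.46 ± 0.19 from MTX to MTX+nitrate, with edgeR adjusted p-values of 0.155 and 0.157, and 0.01 ± 0.19 from control to MTX+nitrate (adjusted p = 0.990). Cyb5a was steadier, at 469.1, 424.1, 455.8, 473.5 and 542.3 CPM in control, 544.6, 521.8, 645.0, 547.5 and 487.1 in MTX and 438.7, 483.4, 436.9, 439.3 and 470.9 in MTX+nitrate. Each MTX+nitrate library of Cyb5a was below the lowest MTX library, while control overlapped both. Its log2 fold change was -0.27 ± 0.09 for MTX+nitrate against MTX (1.21-fold lower), with an adjusted p of 0.0800 in edgeR and 0.0231 in DESeq2. Groups without overlap in the lower direction made up 2.95% of all genes there. MTX against control gave 0.22 ± 0.09 (adjusted p = 0.161 in edgeR) and MTX+nitrate against control -0.06 ± 0.09 (adjusted p = 0.781). With the length and GC correction the MTX+nitrate against MTX value of Cyb5a was -0.18 (adjusted p = 0.265 in edgeR).

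**Figure D3:**
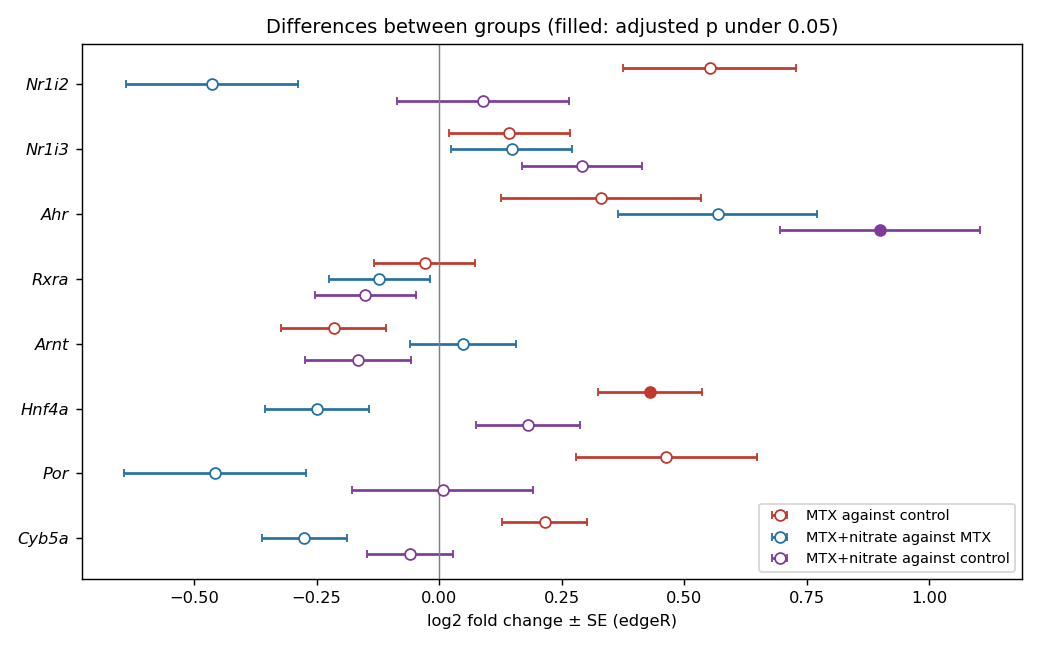
Log2 fold change ± SE from edgeR (x axis) of each gene (y axis) in the 3 comparisons, filled where the adjusted p is under 0.05. Hnf4a in MTX against control and Ahr in MTX+nitrate against control are the filled points, at 0.43 and 0.90.

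The plot of fold changes sets the comparisons side by side. They share libraries, so their values are not independent of each other. In MTX against control, 4 of the 8 genes had an unadjusted p under 0.05, a level that 21.9% of all genes reached, and all 4 were higher in MTX (Nr1i2, Hnf4a, Por and Cyb5a). In MTX+nitrate against MTX those 4 were lower in MTX+nitrate at an unadjusted p under 0.05 and Ahr was higher. The 2 comparisons use the same MTX libraries with opposite sign. Between MTX+nitrate and control, a difference that does not include the MTX libraries although they enter the shared estimate of the spread, 2 genes had an unadjusted p under 0.05, Ahr and Nr1i3, against 17.6% of all genes. Single libraries stood low or high for several genes at once: control library 2 was the lowest control library for 5 of the 8 (Nr1i2, Nr1i3, Rxra, Por and Cyb5a), and MTX+nitrate library 4 the highest of its group for 4 (Nr1i2, Ahr, Hnf4a and Por).

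Several genes known to respond to CAR were higher after MTX, and some of them were lower again in MTX+nitrate. Of 27 listed, 24 were tested. In MTX liver 6 rose and 0 fell, beside 2.06% and 1.6% of all genes. The median log2 fold change of the 24 was 0.21, beside -0.00074 for all genes tested. Cyp2c29, an arachidonic acid epoxygenase, rose from 1818 ± 521 CPM in control to 4116 ± 610 in MTX, a log2 fold change of 1.18 ± 0.18 (adjusted p = 0.00414 in edgeR). Cyp2c50 rose by 0.49 ± 0.11, Cyp2c54 by 0.68 ± 0.17 and the retinal dehydrogenase gene Aldh1a1 by 0.63 ± 0.15, at adjusted p-values of 0.0300, 0.0354 and 0.0344. The other 2 genes called were Alas1, the first enzyme of heme synthesis, and Cyp2b10, the classical CAR target. In this comparison both are outside the rule for naming genes and were chosen after their values were seen. Alas1 stood at 43.2 ± 24.6 CPM in control and 153.9 ± 111.5 in MTX, a log2 fold change of 1.83 ± 0.46 (adjusted p = 0.0391 in edgeR), and Cyp2b10 at 4.02 ± 2.13 and 15.0 ± 5.34 CPM, a log2 fold change of 1.90 ± 0.50 (adjusted p = 0.0466). The libraries of both genes overlapped between the groups. Leaving out control library 2, 3, 4 or 5 or MTX library 1 or 2 ended the call of Alas1, and that of Cyp2b10 was kept in 1 of 10 such fits, the one without control library 2. After the length and GC correction 5 of the 24 were called, by DESeq2 8 and by limma-voom 4. From MTX to MTX+nitrate, 0 rose and 4 fell, beside 2.37% and 1.94% of all genes, with a median of -0.22 beside 0.0084. These were Cyp2c29 by -0.76 ± 0.18, Cyp2c50 by -0.43 ± 0.11, the carboxylesterase gene Ces2a by -0.41 ± 0.10 and the glucuronosyltransferase gene Ugt2b34 by -0.39 ± 0.09, at edgeR adjusted p-values of 0.0305, 0.0430, 0.0299 and 0.0289, and 1 of 24 was called there after the length and GC correction. Against control, in MTX+nitrate liver 1 was called, Alas1, which was 2.28 ± 0.47 higher (adjusted p = 0.0232 in edgeR; 1.41% of all genes were called higher), with a median of -0.05 over the list beside 0.01. Members of the Cyp2c, Ugt2b and Ces2 families are related in sequence, to a degree not measured here. How the counting shared reads between them is not given, so single values of these genes are uncertain.

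On the list of PXR-responsive genes none was called after MTX, and some were lower in MTX+nitrate liver. Genes of the Cyp2b and Cyp2c families, which PXR can raise as well, stood in the CAR list. Of 20 listed, 17 were tested. In MTX against control 0 were called in edgeR, DESeq2 and limma-voom, beside 3.66%, 7.92% and 2.82% of all genes. At an unadjusted p under 0.05 there were 4, beside 21.9% of all genes, and the median log2 fold change was -0.03. Cyp3a13 had the lowest p there, at 0.34 ± 0.14 (adjusted p = 0.177 in edgeR), followed by Insig2 at -0.25 ± 0.11 (adjusted p = 0.182). With nitrate, relative to MTX alone, 2 fell: Cyp3a11, the main drug-metabolizing P450 of mouse liver, by -0.70 ± 0.14, from 4971 ± 609 to 3061 ± 648 CPM (adjusted p = 0.0209 in edgeR), and Cyp3a25 by -0.51 ± 0.14 (adjusted p = 0.0464). Of all genes 1.94% were called lower there, and the median of the list was -0.06. After the length and GC correction 1 of the 17 was called in that comparison, and DESeq2 called 3. Every MTX+nitrate library of Cyp3a11 was below every MTX library. Relative to control, in MTX+nitrate liver 3 fell, beside 0.992% of all genes, 2 were called after the correction, and the median was -0.03. They were Insig2, an inhibitor of sterol synthesis, at -0.61 ± 0.11 (adjusted p = 0.00885 in edgeR), Cyp3a25 at -0.74 ± 0.14 (adjusted p = 0.0126) and Cyp3a59 at -0.86 ± 0.19 (adjusted p = 0.0321). Reads may likewise have been shared among the Cyp3a genes.

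No gene listed as responsive to AHR was called in any comparison, including the one in which Ahr itself was called. Of 16 listed, 14 were tested, with 0 called in edgeR in each comparison and 2, 3 and 2 at an unadjusted p under 0.05 in MTX against control, MTX+nitrate against MTX and MTX+nitrate against control. DESeq2 called 0, 1 and 1 and limma-voom none. Over all genes, edgeR called 3.66%, 4.31% and 2.41%, and 21.9%, 22.4% and 17.6% had an unadjusted p under 0.05. The medians were -0.0091, 0.016 and 0.0745. Cyp1a2, the main hepatic target, stood at 554.8 ± 98.8, 566.5 ± 23.8 and 588.4 ± 66.6 CPM in control, MTX and MTX+nitrate, with a log2 fold change of 0.08 ± 0.11 in MTX+nitrate against control. Cyp1a1, the most inducible one, stood near 1 CPM in the 3 groups, at 0.931 ± 0.215, 1.05 ± 0.588 and 0.983 ± 0.799. Fgf21 had the lowest p in MTX+nitrate against control, at -1.48 ± 0.48 (adjusted p = 0.108 in edgeR), and Nfe2l2, the oxidative stress factor, followed at 0.27 ± 0.09 (adjusted p = 0.131). Cyp1a1 and Cyp1a2 are outside the rule for naming genes and were chosen after their values were seen.

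**Figure D4:**
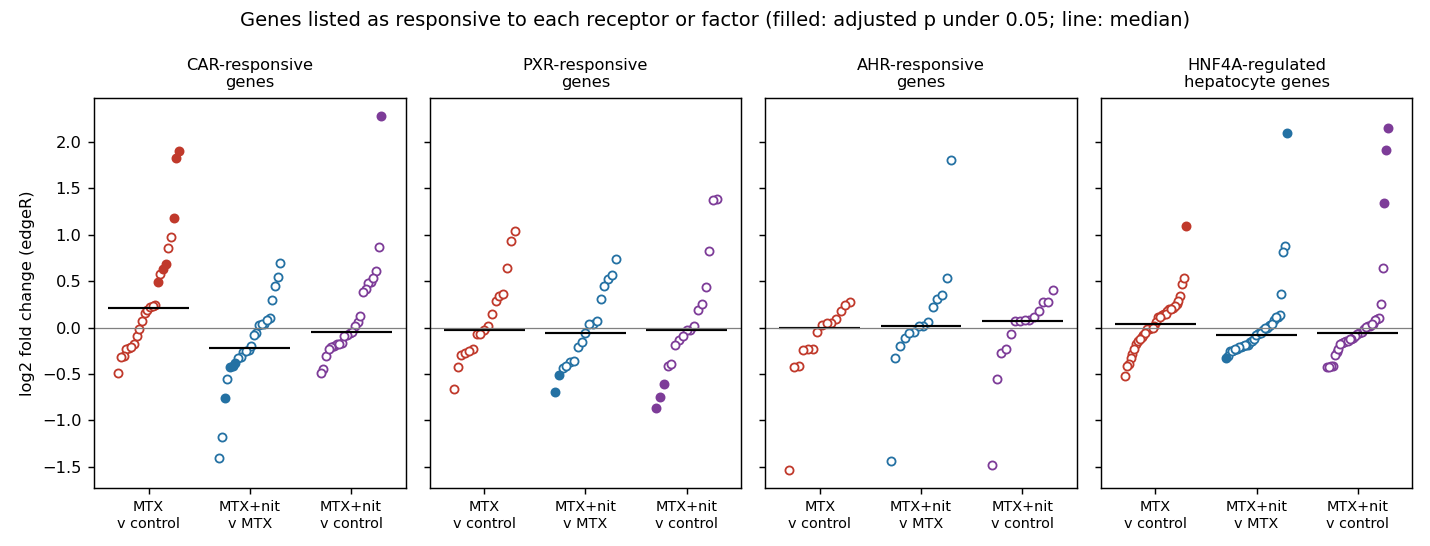
Log2 fold changes from edgeR (y axis) of the tested genes listed as responsive to CAR, PXR and AHR or regulated by HNF4A, in the 3 comparisons (x axis), 1 point per gene, filled where the adjusted p is under 0.05, with the list median as a line. In MTX against control 6 of 24 CAR-responsive genes are filled and 0 of 14 AHR-responsive genes are filled in any comparison.

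As the plot of the listed genes shows, most genes regulated by HNF4A in hepatocytes were not called. Of 35 listed, 34 were tested, and 1 rose with MTX, Tat, a tyrosine-degrading enzyme, by 1.10 ± 0.27 (adjusted p = 0.0345 in edgeR), with a list median of 0.04. Relative to MTX, in MTX+nitrate liver 1 rose and 1 fell: Cyp7a1, which commits cholesterol to bile acid synthesis, was at 33.6 ± 6.68 CPM in MTX and 143.5 ± 47.9 in MTX+nitrate (2.09 ± 0.32, adjusted p = 0.00579 in edgeR), and the clotting factor F9 fell by 0.33 in log2 terms (adjusted p = 0.0476). The median was -0.08. Between MTX+nitrate and control, 3 rose and 0 fell, with a median of -0.06: Tat by 1.92 ± 0.28, Cyp7a1 by 2.16 ± 0.32 and G6pc, which releases glucose, by 1.35 ± 0.29, at edgeR adjusted p-values of 0.00283, 0.00294 and 0.0267. F9 lost its call in all 10 fits that leave out a library of its groups. The shares of all genes called higher in the 3 comparisons were 2.06%, 2.37% and 1.41%, and lower 1.6%, 1.94% and 0.992%.

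Among 18 tested hepatocyte transcription factors beside Hnf4a, none was called in MTX against control in edgeR, DESeq2 or limma-voom (2 at an unadjusted p under 0.05). The lowest p-values there were those of Nr2f6, at 0.36 ± 0.12 (adjusted p = 0.0944 in edgeR), which shares 54.4% of its exon bases with Ocel1 on the other strand, and Nr2f2, at -0.39 ± 0.13 (adjusted p = 0.103). Between MTX+nitrate and MTX, Cebpb, an acute-phase factor, rose by 0.72 ± 0.14 (adjusted p = 0.0191 in edgeR), while Xbp1, a factor of the secretory pathway, fell by 0.47 and Cebpa by 0.46 on the log2 scale (both at an adjusted p of 0.0339). Cebpb shares 20.7% of its exon bases with Tmem189 on the other strand. Against control, Cebpa fell by 0.45 in MTX+nitrate (adjusted p = 0.0481 in edgeR), the 1 of 18 called. An unadjusted p under 0.05 was found for 10 of 18 in MTX+nitrate against MTX and for 7 in MTX+nitrate against control. DESeq2 called 5 and 3 in these comparisons, and limma-voom 3 and 1. Among all genes, edgeR called 3.66% in MTX against control, 4.31% in MTX+nitrate against MTX and 2.41% in MTX+nitrate against control. An unadjusted p under 0.05 was reached by 21.9%, 22.4% and 17.6%, and DESeq2 called 7.92%, 8.5% and 5.28%. These shares also stand beside the counts of the pathway lists that follow.

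Of 14 tested RXR genes and receptor partners of RXR, 0 were called with MTX in edgeR or limma-voom (4 at an unadjusted p under 0.05; DESeq2 called 1). From MTX to MTX+nitrate, the thyroid hormone receptor gene Thra rose by 0.57 ± 0.11 and the retinoic acid receptor gene Rarg by 1.02 ± 0.21 (adjusted p = 0.0157 and 0.0191 in edgeR), and the oxysterol receptor gene Nr1h3 dropped by 0.29 in log2 terms (adjusted p = 0.0464). In that comparison 2.37% of all genes were called higher and 1.94% lower. Thra shares 5.7% of its exon bases with Nr1d1 on the other strand. From control to MTX+nitrate, Ppard, a fatty acid receptor, rose by 2.09 ± 0.44, from 13.3 ± 8.34 to 56.3 ± 21.6 CPM (adjusted p = 0.0256 in edgeR). An unadjusted p under 0.05 was found for 5 of 14 in MTX+nitrate against MTX and for 5 in MTX+nitrate against control. DESeq2 called 3 and 1 in these comparisons. The corepressors and coactivators gave no call. None of 18 was called by edgeR in any comparison, with 4, 1 and 2 at an unadjusted p under 0.05 and 1, 1 and 0 called by DESeq2. The corepressor gene Ncor1 had the lowest p of them with MTX, at -0.21 ± 0.07 (adjusted p = 0.0935 in edgeR), and Nr0b2, the small heterodimer partner, the lowest in MTX+nitrate against MTX, at -0.80 ± 0.23 (adjusted p = 0.0552).

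A list of 15 genes held chaperones, kinases and related regulators of CAR and AHR, and also Nr3c1, the glucocorticoid receptor gene. Nr3c1, neither a chaperone nor a kinase, was the 1 called by edgeR, in both comparisons with control (3.66% and 2.41% of all genes). DESeq2 called 2 and 1 there and limma-voom 1 and 1. Nr3c1 fell by 0.48 on the log2 scale with MTX and by 0.46 in MTX+nitrate against control (adjusted p = 0.0273 and 0.0372 in edgeR). With nitrate, relative to MTX alone, edgeR called 0 of the 15, with 5 at an unadjusted p under 0.05 and 1 called by DESeq2. Of 9 tested relatives and rivals of AHR and ARNT with the same bHLH-PAS fold or acting on them, edgeR called 0 in all 3 comparisons (1, 0 and 2 at an unadjusted p under 0.05; DESeq2 called 1, 0 and 1). Hif1a, another partner of ARNT, was at -0.37 ± 0.10 in MTX+nitrate against control (adjusted p = 0.0687 in edgeR), and Arntl, the clock factor, at 0.69 ± 0.22 in MTX against control (adjusted p = 0.0817).

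None of 16 tested electron donors beside Por and Cyb5a was called by edgeR in any comparison, with 4, 4 and 3 at an unadjusted p under 0.05 and 3, 1 and 2 called by DESeq2. Cyb561, which carries electrons from ascorbate across membranes, was at 0.87 ± 0.26 in MTX against control (adjusted p = 0.0668 in edgeR), and Pgd, an NADPH-producing enzyme of the pentose phosphate pathway, at 0.48 ± 0.15 (adjusted p = 0.0828). Pgrmc1, a heme protein that binds P450 enzymes, was at -0.25 ± 0.08 in MTX+nitrate against MTX (adjusted p = 0.0736 in edgeR). A list of mostly microsomal enzymes that take electrons from POR or CYB5A had 16 tested genes. The list as written also held flavin monooxygenases, which take electrons from NADPH directly, and a cytosolic enzyme. Of the 16, 2 rose with MTX, both of sterol synthesis: Cyp51 by 0.80 ± 0.17 and Msmo1 by 0.74 ± 0.19 (adjusted p = 0.0231 and 0.0444 in edgeR), with a list median of 0.26. Against control, in MTX+nitrate liver Dhcr7, the last enzyme of cholesterol synthesis, rose by 0.76 ± 0.19 (adjusted p = 0.0484 in edgeR), with a median of 0.32, and in MTX+nitrate against MTX edgeR and DESeq2 called 0 (4 at an unadjusted p under 0.05). Beside these counts, edgeR called 2.06% of all genes higher with MTX and 1.41% higher in MTX+nitrate against control.

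Most of these calls did not hold without each library in turn. Of the 46 called values of named genes other than the 8, cell markers included, 12 were called in every fit that left out 1 library of the groups compared. These were Cyp2c29 in MTX against control, Cyp3a11, Cebpb, Thra, Rarg and Cyp7a1 in MTX+nitrate against MTX, Insig2, Cyp3a25, Tat and Cyp7a1 in MTX+nitrate against control, and the cholangiocyte marker Spp1 in both comparisons with MTX. In the settings beside leaving out a library, 9 of the 46 stayed called in all, and 5 were called in every setting tried. These 5 were Cyp2c29 in MTX against control, Cyp7a1 in MTX+nitrate against MTX, and Insig2, Tat and Cyp7a1 in MTX+nitrate against control. None of the 46 changed sign in any setting tried. Exon overlaps with other genes, beside those given above, took up 18.8% of Spp1, 10.3% of Cyb561, 7.53% of Alas1, 7.46% of Nr2f2, 5.6% of Hif1a and less of the other genes named from the lists.

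The ratio of P450 RNA to Por RNA was computed as a description after the data were seen. The summed level of 80 genes of the Cyp1 to Cyp4 families, per kilobase, was 154.7 to 244.1 times that of Por in control (median 182.3), 116.7 to 207.4 times in MTX (median 147.4) and 132.6 to 197.3 times in MTX+nitrate (median 170.0). Relative to Cyb5a it was 25.4 to 30.2, 22.5 to 30.7 and 23.1 to 26.8 times. The groups overlapped in both ratios.

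After subtracting the group means, the relations among the 8 genes were computed over the 15 libraries for all 28 pairs, also after the data were seen. Rxra and Hnf4a varied together across libraries, with Pearson's r of 0.76 (permutation p = 0.00456, adjusted p = 0.0766) and Spearman's rho of 0.79 (permutation p = 0.00268, adjusted p = 0.0375), and r was 0.77 without the 2 libraries in which Rxra was farthest from its group mean. Rxra and Arnt ran opposite, with r of -0.72 (permutation p = 0.00547, adjusted p = 0.0766) and rho of -0.83 (permutation p = 0.00148, adjusted p = 0.0375), and r was -0.80 without the 2 farthest libraries. Only the rank correlations of these 2 pairs passed the adjustment over 28 pairs. The levels correlated here were not corrected for transcript length and GC content. In MTX+nitrate against MTX that correction moved Rxra from -0.12 to -0.34, Hnf4a from -0.25 to -0.40 and Arnt from 0.05 to -0.05. Its part in these correlations was not tested. Nr1i2 and Por gave an r of 0.57 and a rho of 0.61 (permutation p = 0.0201 and 0.0256), which did not pass it (adjusted p = 0.140 and 0.119).

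Among 11499 genes with a mean of at least 2 CPM, the pair most like each of the 8 in log2 CPM over the 15 libraries is given by Pearson's r as a description. All 15 points share scaling and group differences. For Hnf4a these were Zbtb16 (0.89) and Fbl (0.87), for Ahr Frmd4b (0.88) and Slc25a44 (0.87), and for Nr1i2 Orm3 (0.84) and Dct (0.81). Nr1i3 was most like Hmgxb3 (0.85) and Inpp5a (0.83), Rxra most like Epb41l4b (0.81) and Tcf25 (0.80), and Arnt most like Atad5 (0.93) and B3galt1 (0.85). Por was most like Atp1b3 (0.85) and Ang (0.83), and Cyb5a most like Hax1 and Slc25a3, both at 0.89.

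Markers of other cells differed between the groups at low levels. Neutrophil and monocyte markers summed to 5.36 to 9.08 CPM in control, 3.96 to 43.7 in MTX and 3.76 to 10.5 in MTX+nitrate. Of 8 tested, 1 was called higher with MTX (F13a1) and 2 lower in MTX+nitrate against MTX (Mmp9 and S100a8) in edgeR, beside 2.06% and 1.94% of all genes. DESeq2 called 4 and 2 in these comparisons (7.92% and 8.5% of all genes), limma-voom 0 and 0, and edgeR with the length and GC correction 0 and 1. An unadjusted p under 0.05 was reached by 4 and 6 of 8, beside 21.9% and 22.4% of all genes. Cholangiocyte markers summed to 38.8 to 67.1, 52.1 to 262.4 and 43.3 to 57.7 CPM, with Spp1 and Sox9 called higher with MTX and Spp1 lower in MTX+nitrate against MTX in edgeR, where DESeq2 called 2 and 2 of 7 and limma-voom 1 and 1. The edgeR shares of all genes were again 2.06% and 1.94%. Of 10 Kupffer cell markers edgeR called 0 in each comparison (3, 1 and 1 at an unadjusted p under 0.05; DESeq2 called 2, 1 and 0), with sums of 266.3 to 481.3, 335.6 to 453.5 and 263.3 to 413.3 CPM. Stellate cell and fibroblast markers summed to 650.1 to 1151, 622.6 to 894.9 and 604.3 to 1077 CPM, erythroid markers to 48.5 to 183.1, 48.1 to 109.2 and 61.0 to 159.2 CPM, and adipocyte, pancreas and muscle markers to 34.5 to 49.6, 32.0 to 54.3 and 39.2 to 46.3 CPM, with 0 called by edgeR and 0 by limma-voom in the 3 comparisons. At an unadjusted p under 0.05 there were 0, 2 and 1 of the 10 stellate cell markers, of which DESeq2 called 0, 1 and 0, and 1, 2 and 2 of the 4 tested erythroid markers, of which DESeq2 called 0. Across all genes, 21.9%, 22.4% and 17.6% had an unadjusted p under 0.05 in the 3 comparisons. The part of these cells in the values of the 8 genes was not tested.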

How the data were processed

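RNA from whole liver was sequenced in 15 libraries. An mRNA library kit was used on column-purified RNA, per the labels' protocols. The authors deposited 1 table of unnormalized whole-number read counts per Ensembl gene. Per the submitters' processing notes the build was GRCm38 (mm10). Neither aligner, counter, strand setting nor annotation release is given in the sources used here. The deposited gene length equals the exon union for 53411 of 54495 genes with a GENCODE M21 model, and levels per kilobase use the longest GENCODE M21 transcript.

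Genes were filtered with filterByExpr, scaled by TMM and tested in edgeR 4.0.16 (R 4.3.3; quasi-likelihood, 1 fit over 3 groups, 12 residual degrees of freedom, Benjamini-Hochberg over 14219 genes, called at an adjusted p under 0.05). Gene symbols were shared by 207 identifiers. Counts within groups differed by 19.8 to 53.0 times the sampling variance in the 30 pairs of libraries. No library was therefore a repeat sequencing of another in its group. Libraries of different groups were not compared, and separate preparations of the same liver would not be detected. On simulated counts, edgeR recovered 48, 39 and 45 of 100 genes changed 1.5-fold in MTX against control, MTX+nitrate against MTX and MTX+nitrate against control (14029, 14000 and 14031 genes), and 75, 72 and 82 of 100 changed 2-fold, with 5, 7 and 7 false calls. The 8 genes and the 12 pathway and 8 cell marker lists were chosen with earlier results of these data known. Named beside the 8 genes are up to 4 called genes per list and comparison with the lowest p, or, in lists without a call, up to 2 by lowest p, called marker genes, and 2 genes most like each of the 8. Alas1 and Cyp2b10 in MTX against control, and Cyp1a1 and Cyp1a2, are outside this rule and were chosen after their values were seen.

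Alternatives were DESeq2 1.42.0, its size factors within edgeR, limma-voom (limma 3.58.1), no filter, a stricter filter (1 CPM in at least 5 libraries), the 2 groups compared alone, the replicate number as a block, offsets from smooth trends on transcript length and GC content (mgcv 1.9.3), these offsets with the block, and leaving out each of the 15 libraries. Correlations used 100000 two-sided permutations of libraries within groups.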

Additional observations from a re-analysis of the deposited data

How the results depend on the processing

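Counts of calls depended strongly on tool and library. For MTX against control 521 genes were called, against 1126 by DESeq2, 142 with the replicate block, 78 with the block and the length and GC correction, and 86 to 995 when 1 library was left out. The lowest of these, 86, 89 and 112, were without MTX 2, MTX 1 and control 1, and control 3, 4 and 5 (192, 248 and 250) and MTX 4 (237) also lowered the count by over 1.5 times, while leaving out MTX 5 gave 995. For MTX+nitrate against MTX 613 genes were called, against 1208 by DESeq2, 384 with no expression filter, 248 in a fit over 2 groups, 129 with the block, 297 with the length and GC correction, 24 with both, and 166 to 600 when 1 library was left out (166, 219, 333 and 371 without MTX 1, 2, 3 and 4, and 280, 184, 285 and 325 without MTX+nitrate 1, 2, 3 and 4). For MTX+nitrate against control 342 were called, against 751 by DESeq2, 157 with the block, 217 with the correction, 95 with both, and 99 to 455 when 1 library was left out (99, 130, 187 and 139 without control 1, 3, 4 and 5, and 141, 174, 132 and 146 without MTX+nitrate 2, 3, 4 and 5). The share of calls that were higher moved with the correction from 56.2% to 70.1%, from 55.0% to 33.0% and from 58.8% to 47.5% in the 3 comparisons. The cause was not tested.

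Of the 8 genes, MTX against control called 1, against 2 by DESeq2, 0 with no expression filter, 0 with the block and the correction, and 0 to 2 without 1 library. MTX+nitrate against MTX called 0, against 1 by DESeq2 and 0 without any 1 library. MTX+nitrate against control called 1, against 0 with the block and the correction and 0 to 1 without 1 library. Of the 48 values of called differences of these genes under other settings, 32 stayed called and 16 were lost. Of the 528 values of differences not called, 508 kept their sign and stayed uncalled, 3 passed the threshold and 17 changed sign, each of a difference not called. In MTX+nitrate against control, Nr1i2 was -0.0139 with the correction, -0.0442 with the block and the correction and -0.0765 to 0.21 without 1 library. Por there was -0.00059 with median-of-ratios size factors and with DESeq2, -0.20 with the correction, -0.15 with the block and the correction and -0.12 to 0.12 without 1 library. Rxra in MTX against control ran from -0.0936 to 0.0236 without 1 library. Arnt in MTX+nitrate against MTX was -0.0461 with the correction, -0.0417 with the block and the correction and -0.0023 to 0.14 without 1 library. The cause was not tested. For other named genes, 739 values of called differences stayed called and 359 were lost, 31 values passed the threshold that had not, and 14 changed sign, all of Cyp1a1 and Cyp1a2, which were not called. Without 1 library Cyp1a1 ran from -0.21 to 0.36, -0.69 to 0.28 and -0.52 to 0.33 in the 3 comparisons, and in MTX+nitrate against control it was -0.31 by limma-voom, -0.0206 with the block and -0.0433 with the block and the correction. Cyp1a2 in MTX against control was -0.0414 with the correction, -0.0286 with the block and the correction and -0.014 to 0.13 without 1 library.

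Groups share replicate numbers in the labels, but libraries with the same number showed little likeness over all genes. Over 15 pairs with the same number, deviations from the group means correlated at -0.194 to 0.0636, and 2 of 15 libraries correlated best with their own number. A pairing that acts on fewer genes was not tested. With the replicate block, calls fell to 142, 129 and 157 genes, while Hnf4a and Ahr stayed called at adjusted p-values of 0.0356 and 0.0415. Depth limits the 8 genes little, and the spread between libraries more.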
